A study of Mus musculus with 2 samples.

Results

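The 7 genes described here, Sall1, Maf, Mef2a, Mef2c, Spi1, Runx1 and Cebpa, encode the transcription factors most often named as setting and keeping the identity of microglia, the resident macrophages of the brain. They were chosen by name, as the rows of the feature list with those symbols, and are 7 of the 32589 features in the deposited matrices. Each was read in both libraries of the study, over all cells and within classes of cells named from other marker genes. The study sorted CD45-low, CD11b-positive cells from the prefrontal cortex of C57BL/6 mice and profiled them by single-cell RNA sequencing on a Singleron GEXSCOPE platform. One group received corticosterone, the main glucocorticoid of rodents, by oral gavage to model depression with raised stress hormone, and the control group received vehicle. There was 1 library per group, and the dose, the duration, the sex and the number of animals behind a library were not stated in the sources used here.

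These factors act on several layers of the microglial programme. PU.1, the product of Spi1, is an ETS-family factor that opens myeloid enhancers and without which microglia do not form. RUNX1 and C/EBP alpha, the product of Cebpa, work beside it in blood and myeloid development. The MADS-box factors MEF2A and MEF2C and the leucine-zipper factor c-MAF, the product of Maf, are added in tissue macrophages that have settled in the brain, and the zinc-finger factor SALL1 is known among brain macrophages for its near restriction to microglia.

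In the GENCODE M21 annotation of GRCm38, the build named in the submitters' processing notes, all 7 are protein-coding genes. Sall1 (ENSMUSG00000031665) lies on the minus strand at chr8:89027235-89044162 and Maf (ENSMUSG00000055435) on the minus strand at chr8:115682942-115707794. Mef2a (ENSMUSG00000030557) lies on the minus strand at chr7:67231163-67372858, and Cebpa (ENSMUSG00000034957) on the plus strand at chr7:35119293-35121928. Mef2c (ENSMUSG00000005583) is at chr13:83504034-83667080 on the plus strand, Spi1 (ENSMUSG00000002111) at chr2:91082390-91115756 on the plus strand and Runx1 (ENSMUSG00000022952) at chr16:92601466-92826149 on the minus strand. Their spans differ widely, from 2.64 kb for Cebpa and 16.9 kb for Sall1 through 24.9 kb for Maf and 33.4 kb for Spi1 to 142 kb for Mef2a, 163 kb for Mef2c and 225 kb for Runx1. Opposite-strand genes listed in the matrices overlap 4 of them, and the sources used here do not state whether counting used strand. In microglia-like cells those partners held few UMIs beside the members: Lysmd4 over Mef2a had 240 in vehicle and 403 in corticosterone, Gm15655 over Maf 24 and 27, Gm45091 over Cebpa 9 and 21, and Gm26626 over Runx1 1 and 7.

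Promoter sequence, taken as the 250 bases before an annotated start, was available from RefSeq (GRCm38.p6) for 5 of the 7 genes. The letters searched on both strands were GAGGAA for the core that PU.1 prefers, TGTGGT for RUNX, TGAGTCA for AP-1, TGCTGA for MAF and TTGCNNAA for C/EBP, and the MEF2 element was searched as well. Of these the MAF and AP-1 letters can share bases, which happened in none of the promoters read. The PU.1 core was found in promoters of Mef2a, Mef2c and Runx1. Of 32851 promoters of this length it was in 23.3%, the RUNX letters in 14.0%, the MAF letters in 16.1%, the C/EBP letters in 9.56%, the AP-1 letters in 4.46% and the MEF2 element in 3.20%, so a single match is common. Printed here are Mef2a (chr7:67372859-67373108, minus strand), with the core at -114 to -109 and again at -103 to -98 from the start, and Mef2c (chr13:83503784-83504033, plus strand), with it at -122 to -117, because they are relatives whose ratios between the libraries differed. Sall1 (chr8:89044163-89044412, minus strand), known for its near restriction to microglia, is shown as the contrast, since none of the 6 motifs was in it. Sequences run 5′ to 3′ along the gene, and capitals mark GAGGAA.
Mef2a: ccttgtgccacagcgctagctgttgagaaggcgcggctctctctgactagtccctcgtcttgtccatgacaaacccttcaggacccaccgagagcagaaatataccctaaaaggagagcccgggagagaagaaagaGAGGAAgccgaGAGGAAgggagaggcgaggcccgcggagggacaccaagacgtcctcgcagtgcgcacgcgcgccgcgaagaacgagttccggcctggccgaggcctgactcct
Mef2c: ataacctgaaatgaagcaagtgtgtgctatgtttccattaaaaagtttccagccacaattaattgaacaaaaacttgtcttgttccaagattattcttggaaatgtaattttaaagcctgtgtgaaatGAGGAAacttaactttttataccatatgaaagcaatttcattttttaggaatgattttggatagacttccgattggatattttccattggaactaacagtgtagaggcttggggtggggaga
Sall1: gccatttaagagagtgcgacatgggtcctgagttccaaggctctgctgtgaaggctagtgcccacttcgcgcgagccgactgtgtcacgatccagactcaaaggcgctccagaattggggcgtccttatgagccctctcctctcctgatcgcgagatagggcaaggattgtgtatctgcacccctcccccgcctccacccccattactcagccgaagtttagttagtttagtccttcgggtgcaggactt
The Mef2c promoter is AT-rich, with 33.6% G or C, whereas the Mef2a and Sall1 promoters have 61.6% and 56.4%. The only other matches were in further annotated starts, GAGGAA at -46 to -41 on the minus strand in the Runx1 start at chr16:92697330-92697579, GAGGAA at -186 to -181 in the Mef2c start at chr13:83523406-83523655 and TGCTGA at -104 to -99 in the Mef2c start at chr13:83573357-83573606. Whether any of these letters is bound was not measured.

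After filtering, the vehicle library held 10500 cells with 49325067 UMIs and the corticosterone library 17883 cells with 85103539 UMIs, with medians of 3220.5 and 3961 UMIs per cell. Cells clustered without the 7 genes or other lineage factors, and named from separate markers, were microglia-like in 75.7% of vehicle (7952 cells) and 85.3% of corticosterone (15257 cells). All 10 microglia markers were detected in that class in both libraries. The other classes were border-associated macrophage-like (1053 and 795 cells), neutrophil-like (425 and 397), monocyte-like (223 and 149), erythroid cell-like (156 and 85) and endothelial cell-like (38 and 27), and 653 and 1173 barcodes of low UMI count stayed unnamed. Barcodes of every other class also carried microglia markers. Their median level relative to microglia-like cells was 0.859 in macrophage-like, 0.800 in erythroid cell-like, 0.810 in monocyte-like and 0.578 in neutrophil-like barcodes of vehicle, and 0.674, 0.836, 0.507 and 0.357 in corticosterone. Within the microglia-like class most vehicle cells (7426) fell in a cluster led by Pecam1, and most corticosterone cells (9724 and 4679) in clusters led by Kcnj10 and by Ifi30. That vehicle cluster had 1 endothelial and 1 microglia marker among its 10 leading genes. Its name therefore rested on a tie in the naming rule, and most of its cells went unnamed at some other clusterings. Its microglia markers were at 1.27 times their level over all cells, against 0.90 and 0.98 times in the clusters led by Kcnj10 and by Ifi30. Each group had a single library, so the groups were not tested against each other, group and library cannot be told apart, and all intervals are at the 95% level and cover counting error only.

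In microglia-like cells 4 of the 7 factors were lower in the corticosterone library, with Maf and Sall1 lowest in ratio, 2 were higher and Cebpa was level. Only Maf differed by more than 1.5-fold. Levels are CPM, the count per 1e6 of the summed UMIs of the class, which totalled 32491322 in vehicle and 71521125 in corticosterone.

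Sall1, which encodes the factor that holds microglia in their resting state, stood at 629 CPM (621 to 638, from 20444 UMIs) with vehicle against 442 CPM (437 to 447, 31584 UMIs) with corticosterone, for a log2 ratio of -0.51 (-0.54 to -0.49). Maf stood at 551 CPM (542.5 to 559, 17889 UMIs) and 325 CPM (320.3 to 329, 23209 UMIs), that is a log2 ratio of -0.76 (-0.79 to -0.73), or 0.589 times the vehicle level. For both genes the counting intervals of the libraries lay far apart, and the vehicle library was the higher.

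The 2 MEF2 genes were not alike. Mef2c, whose product restrains the inflammatory response of microglia, stood at 642 CPM (633 to 651) with vehicle against 475 CPM (470.3 to 480.4) with corticosterone, for a log2 ratio of -0.43 (-0.46 to -0.41). Mef2a stood at 620.5 CPM (612 to 629) and 564 CPM (559 to 569.9), a log2 ratio of -0.14 (-0.16 to -0.11). Both were lower in corticosterone, and the interval of the ratio of Mef2a lay wholly above that of Mef2c.

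The 3 remaining factors, Spi1, Runx1 and Cebpa, were not lower in corticosterone. Spi1 stood at 564 CPM (556 to 572) with vehicle against 667 CPM (661 to 673) with corticosterone, for a log2 ratio of 0.24 (0.22 to 0.27). Runx1 stood at 163 CPM (158.5 to 167) and 178 CPM (175 to 181), a log2 ratio of 0.13 (0.08 to 0.18), and Cebpa at 395 CPM (389 to 402) and 396 CPM (391 to 400.2), a log2 ratio of 0.00 (-0.03 to 0.03). Spi1 and Runx1 were thus the higher in corticosterone, while the intervals of Cebpa overlapped. When each cell was given equal weight, Runx1 lost its direction (-0.0065).

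**Figure D1:**
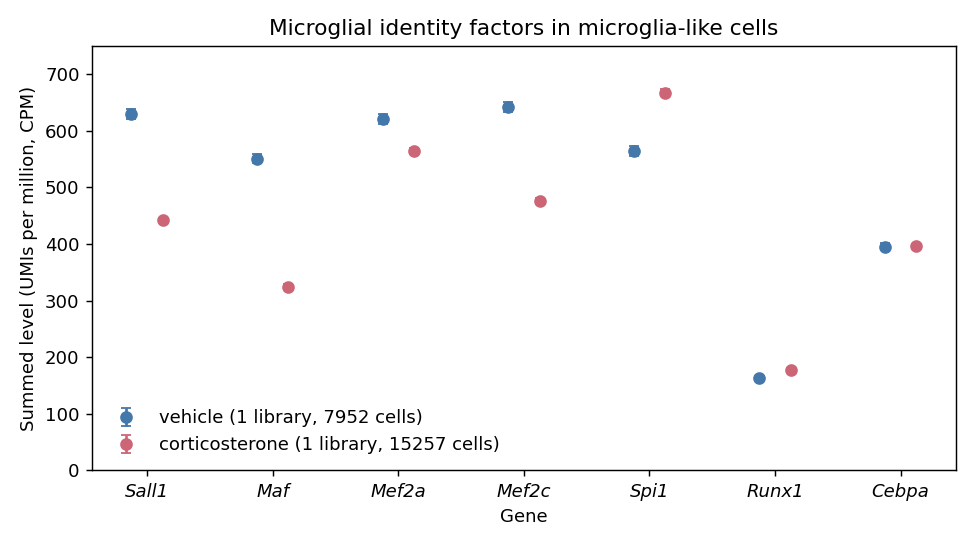
Level of the 7 genes in microglia-like cells, in CPM of the summed counts, for the vehicle and the corticosterone library. Points are 1 library each and bars are 95% counting intervals, which for most points are within the marker. Sall1, Maf and Mef2c sit clearly lower in corticosterone (Maf at 551 and 325 CPM), Spi1 sits higher, and the Cebpa points coincide.

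Among the 6605 genes with a mean of at least 20 CPM in this class, 10.0% were past 1.5-fold between the libraries, 5.28% higher and 4.75% lower in corticosterone. Of the 7 members, 1 (Maf) was lower past that fold and 0 were higher, a count close to this background. Past 2-fold were 3.09% of the genes, 1.79% higher and 1.30% lower, and 0 members. Counting intervals are of little help in ranking genes here, since they excluded equality for 76.6% of all genes. The median log2 ratio was -0.14 over the members, with 3 above 0 and 4 below, and 0.00 over all genes, whose 5th and 95th percentiles were -0.56 and 0.60. Maf had a lower ratio than all but 2.33% of these genes, Sall1 than all but 6.01% and Mef2c than all but 8.36%. The other 4 lay inside the bulk of the distribution, with 30.8% of genes below Mef2a, 50.1% below Cebpa, 66.6% below Runx1 and 79.2% below Spi1.

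**Figure D2:**
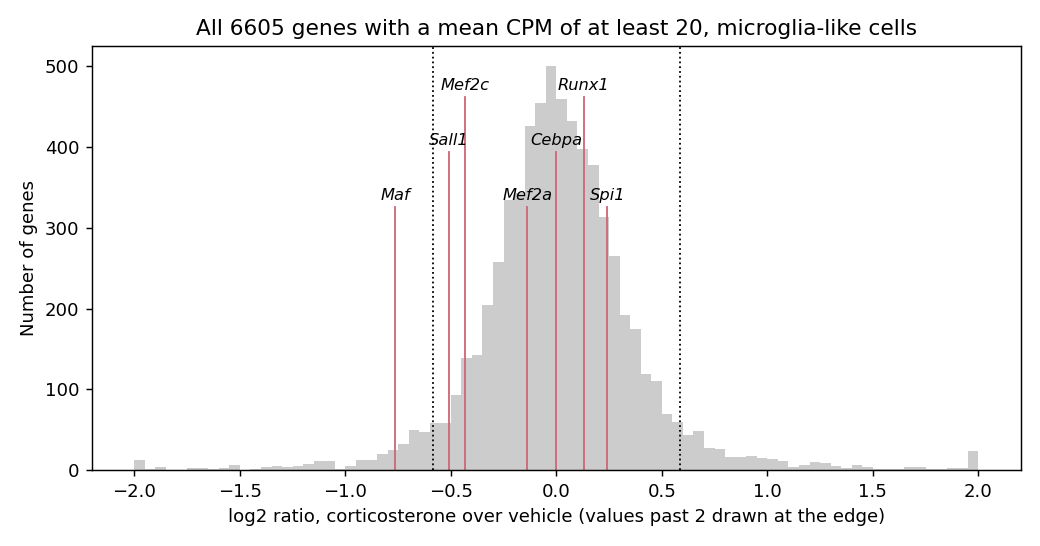
Distribution of the log2 ratio of corticosterone over vehicle for the 6605 genes in microglia-like cells, as a count of genes per bin, with the 7 members as red lines and 1.5-fold as dotted lines. Maf, at -0.76, is the 1 member outside the dotted lines, Sall1 (-0.51) and Mef2c (-0.43) are near the left one, and the other 4 are inside the bulk.

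Because vehicle and corticosterone cells mostly fell in different clusters, the ratios were also taken inside each microglia-like cluster. Sall1, Maf and Mef2c were lower in corticosterone in all 4 clusters with at least 43 cells in each library. The log2 ratio of Maf was -0.32 (-0.47 to -0.18) in the cluster led by Pecam1, with 231 corticosterone cells, and -0.49 (-0.66 to -0.32) in the cluster led by Kcnj10, with 195 vehicle cells. It was -0.78 (-0.95 to -0.61) in the cluster led by Ifi30 and -0.78 (-1.12 to -0.42) in an interferon-response cluster led by Ifit2, with 268 and 43 vehicle cells. Maf was therefore inside 1.5-fold in the clusters that hold most vehicle and most corticosterone cells, and past it in the others.

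Sall1 ran from -0.30 (-0.45 to -0.15) to -0.51 (-0.82 to -0.18) over these clusters and Mef2c from -0.28 (-0.42 to -0.15) to -0.69 (-0.98 to -0.38). Spi1 was above 0 in all 4, at 0.11 to 0.25, although its interval reached 0 in 2 of them. Runx1 was also above 0 in all 4, at 0.18 to 0.28, with an interval that excluded 0 only in the Pecam1-led cluster. Mef2a changed sign, from 0.10 (-0.02 to 0.22) in the Pecam1-led cluster to -0.33 (-0.63 to -0.01) in the Ifit2-led cluster. Cebpa was at 0.37 (0.23 to 0.50) and 0.37 (0.15 to 0.59) in the clusters led by Pecam1 and Ifi30 and at -0.15 (-0.55 to 0.29) in the Ifit2-led cluster, while the class as a whole was at 0.00.

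Across classes, Sall1 was highest in microglia-like cells in both libraries, although the interval of the small endothelial cell-like class overlapped it. In vehicle it stood at 480 CPM (467 to 493) in macrophage-like, 494 CPM (433 to 561) in erythroid cell-like, 452 CPM (420 to 485) in monocyte-like and 329 CPM (305.5 to 354) in neutrophil-like barcodes. In corticosterone the same classes stood at 284, 325, 211 and 158 CPM. Erythroid cells and neutrophils are not known to transcribe Sall1, and the neutrophil-like class was lowest both for it and for the microglia markers. In macrophage-like barcodes Sall1 was at 0.762 times its microglia-like level in vehicle and 0.644 times in corticosterone, beside 0.859 and 0.674 for the median microglia marker. The part that microglial transcripts in these barcodes have in the levels was not tested.

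Maf was the 1 member highest in border-associated macrophages. In cells like these macrophages of the meninges and vessel walls, it stood at 692 CPM (676 to 707.5) with vehicle against 668 CPM (649 to 688) in corticosterone, above every other class in both libraries. That was 1.26 times the microglia-like level in vehicle and 2.06 times in corticosterone. The ratio between the libraries depended on how this class was drawn. Over the whole class the log2 ratio of Maf was -0.05 (-0.10 to 0.00), against -0.76 in microglia-like cells. At a finer clustering (Leiden resolution 1.0, an alternative chosen after the data were seen) the macrophage-like cells of the libraries fell mostly in different clusters. A cluster led by Cd209f held 871 vehicle and 12 corticosterone cells of the class, carried microglia markers at 1.11 times their level over all cells and stayed unnamed. A cluster led by Gpx3 held 68 and 460 cells and one led by Fcna 110 and 322, with the markers at 0.77 and 0.41 times.

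Maf stood at 672 CPM in the vehicle cells of the Cd209f-led cluster. In the Gpx3-led cluster it was at 761 and 506 CPM, a log2 ratio of -0.59 (-0.83 to -0.33), and in the Fcna-led cluster at 1079 and 1002 CPM, a log2 ratio of -0.11 (-0.24 to 0.03). Over the cells named macrophage-like at that resolution the ratio was -0.57 (-0.69 to -0.45). Maf was thus above its microglia-like level of the same library in each of these clusters, whereas no difference in its ratio from microglia-like cells is read.

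Within the macrophage-like class as a whole, Sall1 had a log2 ratio of -0.76 (-0.83 to -0.68), Mef2c of -0.34 (-0.40 to -0.28), Cebpa of -0.30 (-0.38 to -0.22) and Mef2a of -0.18 (-0.24 to -0.12). Spi1 was at 0.20 (0.14 to 0.26) and Runx1 at 0.28 (0.17 to 0.39). The median ratio of the 10 microglia markers in the same barcodes was -0.68, with 10 of 10 lower, against -0.40 in microglia-like cells with 8 of 10 lower. At the finer clustering, Sall1, at 0.48 (0.23 to 0.74), had the opposite sign beyond counting error. Mef2a, at 0.15 (-0.02 to 0.33), and Cebpa, at 0.20 (-0.03 to 0.44), had it in value, with intervals that included 0. The microglia markers there were at a median of 0.20. Mef2c (-0.46) and Spi1 (0.22) kept their signs, and Runx1 did so in value only, at 0.15 (-0.13 to 0.45). No direction is read for Sall1, Mef2a and Cebpa in this class.

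**Figure D3:**
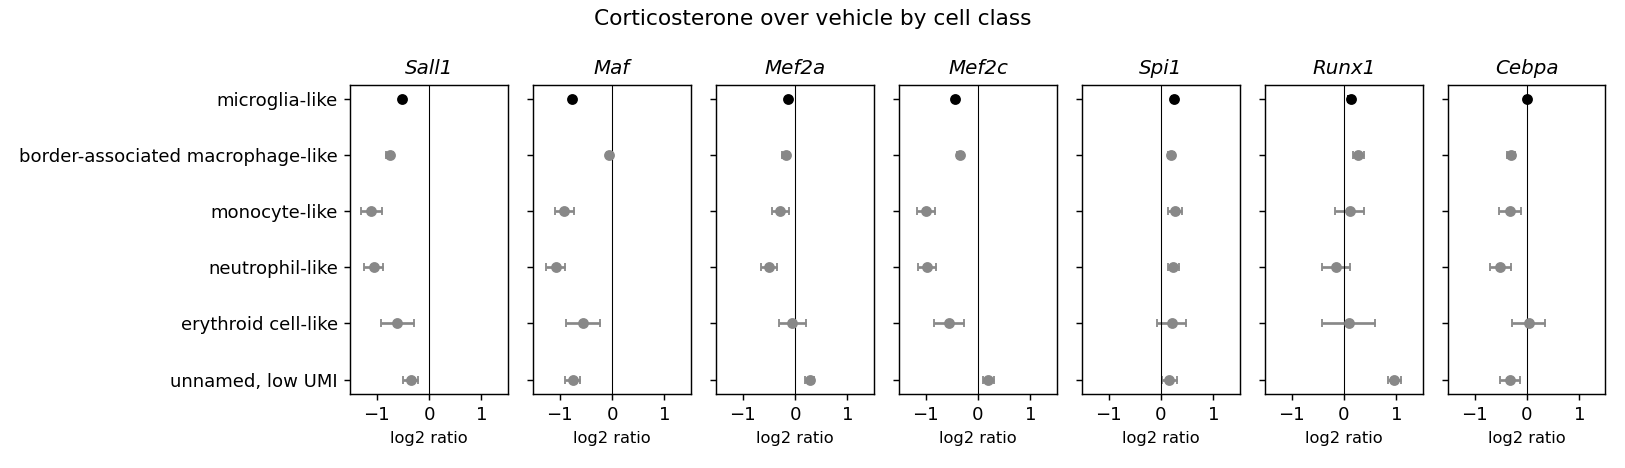
Log2 ratio of corticosterone over vehicle for each of the 7 genes (panels) by class of cells (lines), with 95% counting intervals and microglia-like cells in black. The endothelial cell-like class (38 and 27 cells) is not drawn, and Spi1 was at -0.21 (-0.62 to 0.18) in it. Maf is near 0 in border-associated macrophage-like cells (-0.05, but -0.57 at the finer clustering) and well below 0 in the other classes drawn, Spi1 is between 0.16 and 0.27 in the 6 classes drawn, and Runx1 stands out at 0.96 in the unnamed barcodes.

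Neutrophil-like barcodes set Spi1 apart from the other 6 genes. PU.1 is also used by granulocytes, and Spi1 stood in this class at 622.5 CPM (589.9 to 656.5) with vehicle against 733 CPM (699 to 769) in corticosterone, 1.10 times the microglia-like level in both. The other members were lower than in microglia-like cells, at 0.523 to 0.685 times in vehicle and 0.359 to 0.563 times in corticosterone, where the median microglia marker was at 0.578 and 0.357 times. Sall1 went from 329 to 158 CPM, a log2 ratio of -1.05 (-1.24 to -0.87). Maf, at -1.07 (-1.25 to -0.89), and Mef2c, at -0.97 (-1.14 to -0.80), were much the same, next to -1.04 for the median microglia marker in this class. Cebpa, at -0.51 (-0.71 to -0.31), and Mef2a, at -0.49 (-0.65 to -0.34), were lower by less. Runx1, at -0.15 (-0.42 to 0.11), was not lower beyond counting error in this class. At the finer clustering its ratio was -0.27 (-0.53 to -0.02), an interval that excluded 0.

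The neutrophil-like class was made of a pair of clusters, and the one led by the granule genes Camp, Ngp and Ltf held the fewest microglia transcripts. There Sall1 stood at 211 CPM (183 to 241) with vehicle against 62.1 CPM (48.1 to 78.8) in corticosterone. Maf stood at 228.5 CPM (199.9 to 260) and 50.9 CPM (38.4 to 66.3). Cebpa, which encodes a factor that granulocyte precursors need, stood at 150.0 CPM (127 to 176) and 52.8 CPM (39.99 to 68.4). Spi1 kept 532.5 CPM (488 to 579.5) and 596.5 CPM (551 to 644), so in these barcodes it was the 1 member not lower in value in corticosterone. Runx1, also a blood-cell factor, lay between, at 93.4 and 69.5 CPM. Its log2 ratio there, -0.43 (-0.88 to 0.03), had an interval that included 0.

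The other 4 genes had no named class that stood above the rest in both libraries beyond counting error. Cebpa was highest in microglia-like cells, with an interval that overlapped the erythroid cell-like class, at 369 CPM for vehicle and 377.5 CPM for corticosterone. In macrophage-like cells it was lower, at 338 and 274 CPM. Mef2a stood there at 531 and 469.6 CPM, Mef2c at 587 and 463 CPM and Runx1 at 149 and 180.3 CPM. In corticosterone the Mef2c and Runx1 intervals of macrophage-like and microglia-like cells overlapped. The lowest named class of over 50 cells in each library was neutrophil-like for all 4 genes, Runx1 at 111.5 and 100.3 CPM and Mef2a at 361.5 and 257 CPM.

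Monocyte-like barcodes, led by class II histocompatibility genes and S100a4, and erythroid cell-like barcodes also had Sall1, Maf and Mef2c as the 3 lowest ratios. The log2 ratios in the monocyte-like class were -1.10 for Sall1, -0.99 for Mef2c, -0.91 for Maf, -0.32 for Cebpa, -0.28 for Mef2a, 0.11 for Runx1 and 0.27 for Spi1, beside -1.09 for the median microglia marker. At the finer clustering 193 vehicle and 90 corticosterone cells of the class fell in a cluster led by H2-Eb1 that stayed unnamed. Sall1, Mef2c and Maf were at -0.77, -0.64 and -0.61 in them. Over the 29 and 59 cells named monocyte-like at that resolution they were at -1.57, -1.46 and -1.01, and Spi1 was at -0.02 (-0.35 to 0.31). In erythroid cell-like barcodes the ratios of the 7 genes, in the order of the whole monocyte-like class, were -0.60, -0.55, -0.55, 0.03, -0.05, 0.09 and 0.20. The median microglia marker was at -0.39 there. Counts were small in the latter, with 64 UMIs of Runx1 in corticosterone, and the difference from microglia-like cells had an interval that included 0 for all 7 genes.

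The barcodes left unnamed had a median of 1066 UMIs in vehicle and 1257 in corticosterone and were led by transcripts of long genes such as Kcnq1ot1, Lrmda and Cacnb2. In them Mef2a, Mef2c and Runx1 were far above their microglia-like levels. Whether the counts include reads in introns is not given in the sources used here, so unspliced and spliced transcripts cannot be told apart in these levels. Runx1 stood at 480.5 CPM (443 to 520.4) with vehicle against 936 CPM (898 to 974) in corticosterone, 2.95 and 5.26 times the microglia-like level. Mef2a stood at 1224 and 1487 CPM, 1.97 and 2.63 times, and Mef2c at 900.0 and 1033 CPM, 1.40 and 2.17 times. Sall1, Spi1 and Cebpa were below their microglia-like levels at 0.615 to 0.86 times, and Maf was at 1.05 and 1.06 times with intervals that included equality.

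The 3 members above their microglia-like levels beyond counting error in these barcodes, Mef2a, Mef2c and Runx1, were the 3 with the longest spans. Over all genes at 20 CPM or more in microglia-like cells, the median log2 ratio of unnamed over microglia-like barcodes was -0.41 in vehicle and -0.64 in corticosterone for genes under 10 kb, where Cebpa belongs. For genes of 10 to 50 kb, the bin of Sall1, Maf and Spi1, it was -0.11 and -0.20. For 100 to 200 kb, the bin of Mef2a and Mef2c, it was 0.68 and 1.13, and for 200 kb and over, the bin of Runx1, 1.26 and 1.92. More than 2-fold higher levels were reached by 27.8% and 55.9% of the genes of 100 to 200 kb and by 69.8% and 83.8% of those of 200 kb and over. Runx1 was among them in both libraries (2.95 and 5.26 times), and Mef2a (2.63 times) and Mef2c (2.17 times) only in corticosterone.

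Here the ratio between the libraries also went another way for Mef2a and Mef2c, and further in the same direction for Runx1. The log2 ratio of corticosterone over vehicle was 0.28 (0.19 to 0.37) for Mef2a, 0.20 (0.10 to 0.30) for Mef2c and 0.96 (0.83 to 1.09) for Runx1, where microglia-like cells gave -0.14, -0.43 and 0.13. Maf, at -0.75 (-0.90 to -0.61), was the same as in microglia-like cells within counting error. Cebpa was at -0.32 (-0.51 to -0.13), where microglia-like cells gave 0.00. Within microglia-like cells the median ratio of genes moved with span in the other direction, from 0.09 under 10 kb to -0.15 at 100 to 200 kb and -0.27 at 200 kb and over. Mef2a (-0.14) was at the median of its span bin, Mef2c (-0.43) below it and Runx1 (0.13) above it. The part of span in these differences was not tested.

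**Figure D4:**
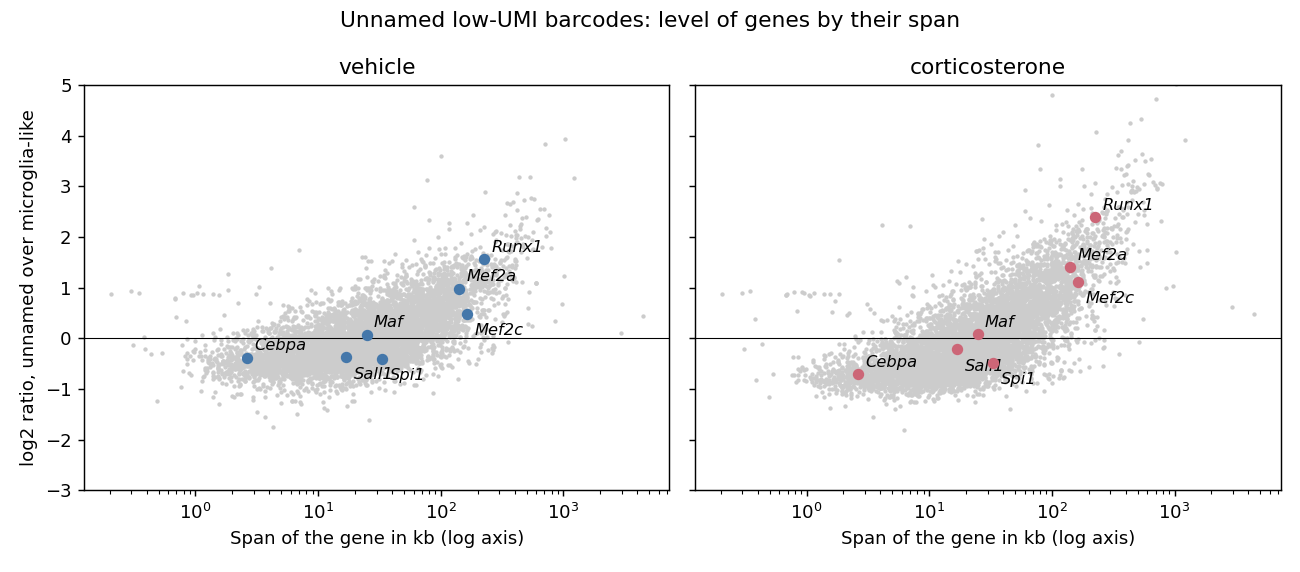
Log2 ratio of the level in unnamed low-UMI barcodes over that in microglia-like cells (vertical axis) against the span of the gene in kb (log axis), for all genes with a mean of at least 20 CPM (grey) and the 7 members, by library. Runx1, Mef2a and Mef2c, the 3 longest, sit above 0 within the rising cloud of long genes, and Cebpa, the shortest, sits below 0.

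The same genes depended on depth inside the microglia-like class of the vehicle library. In vehicle cells of 500 to 1000 UMIs, Mef2a was at 882 CPM (796 to 976), Mef2c at 917 CPM (829 to 1012) and Runx1 at 314 CPM (263.5 to 372), against 584, 613 and 147 CPM in cells of 8000 UMIs and over. Maf, at 582 and 546 CPM, varied less, and Spi1 went the other way, from 433 to 567 CPM. Only 88 corticosterone cells had 500 to 1000 UMIs. In these Mef2a stood at 623 CPM (451 to 839) and Mef2c at 536 CPM (378 to 739). Runx1 stood at 188 CPM (100 to 322) and Spi1 at 797 CPM (601 to 1038). These intervals included the corticosterone levels at 8000 UMIs and over, 555, 466, 168 and 648 CPM. The dependence seen in vehicle is therefore not read for corticosterone. Since corticosterone cells were deeper, the ratio was also taken over cells of 2000 to 8000 UMIs, an alternative chosen after the data were seen, under which no member changed direction.

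Detection was compared as the percentage of cells in which a gene had 1 UMI or more, with every cell thinned to 1000 UMIs. This left 7356 vehicle and 15169 corticosterone microglia-like cells and dropped 596 and 88 shallower ones. Sall1 was detected with vehicle in 46.4% (45.3 to 47.6%) and with corticosterone in 34.7% (33.9 to 35.5%) of them, and Maf in 39.8% (38.7 to 40.9%) and 26.7% (26.0 to 27.4%). Mef2c was found in 45.7% and 36.8%, Mef2a in 43.8% and 42.1%, Spi1 in 42.5% and 47.3%, Runx1 in 14.9% and 15.9%, and Cebpa in 29.8% and 30.5%. These shares keep the order of the CPM values. Without thinning they were 78.8% and 77.5% for Sall1, 75.1% and 67.2% for Maf, 78.5% and 78.4% for Mef2c and 78.9% and 85.2% for Mef2a. The unthinned share of Mef2a goes against its thinned share and its CPM and is not read. Spi1 (75.5% and 88.6%), Runx1 (40.3% and 49.0%) and Cebpa (62.3% and 68.8%) also read higher in corticosterone without thinning. At 2000 UMIs the order for Cebpa was the opposite, 50.1% and 48.4%, and no order is read for it.

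Erythroid cell-like barcodes give the background to these shares. With median depths of 3085 and 3888 UMIs, where microglia-like cells had 3376 and 4018, they held Sall1 in 38.8% (30.3 to 47.7%) and 26.5% (17.4 to 37.3%) and Maf in 35.7% (27.4 to 44.6%) and 26.5% (17.4 to 37.3%). For all 7 genes and both libraries, the microglia-like share at 1000 UMIs lay inside the interval of the erythroid cell-like share. At 2000 UMIs the share was above that interval for Sall1 in vehicle (70.0% against 54.8%, 44.7 to 64.6%), for Spi1 in vehicle (66.7% against 52.9%, 42.8 to 62.8%) and for Mef2c in corticosterone (57.5% against 43.9%, 33.0 to 55.3%), and inside it for the rest. Mef2a at 47.3% in vehicle, and Spi1 at 51.8% and Cebpa at 37.3% in corticosterone, were above the microglia-like share in value. P2ry12, a microglial receptor, was in 89.9% and 94.0% of the same barcodes, so this background also holds microglial transcripts. In neutrophil-like barcodes the shares were lower, at 19.7% and 7.95% for Sall1, 19.1% and 7.69% for Maf and 21.2% and 9.74% for Mef2c, but 45.1% and 51.8% for Spi1.

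**Figure D5:**
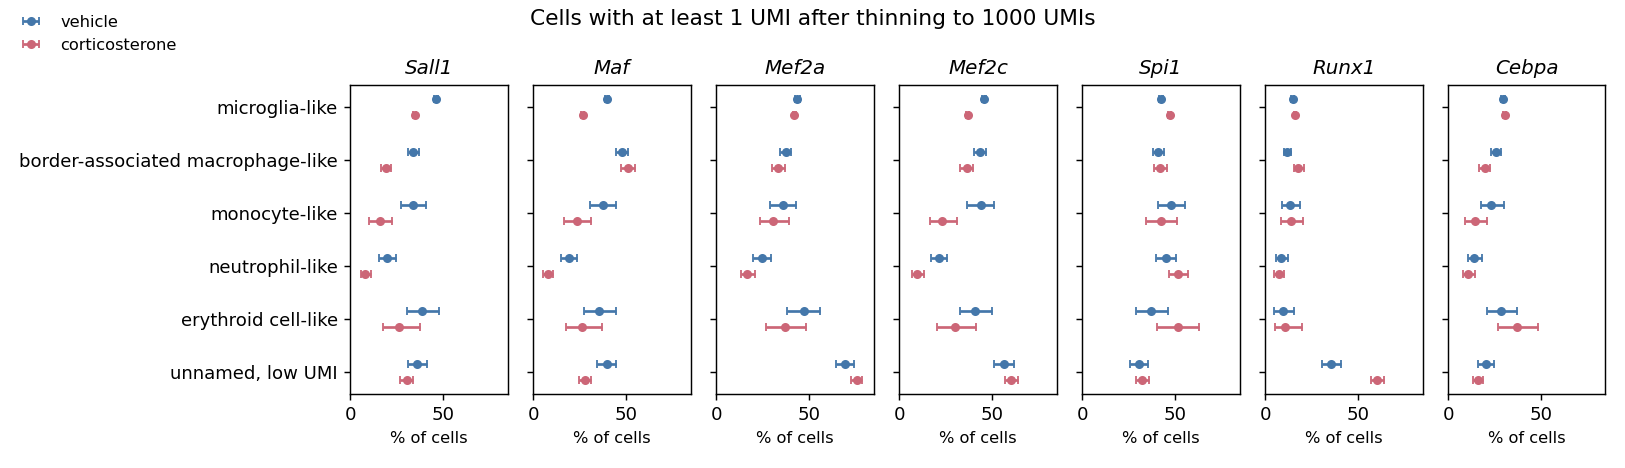
Share of cells with at least 1 UMI of each gene (panels, in percent) after thinning each cell to 1000 UMIs, by class of cells (lines) and library (colours), with exact 95% binomial intervals. Sall1 and Maf are lower on the neutrophil-like than on the microglia-like line in both libraries, Spi1 (45.1% and 51.8%) is not, and Mef2a and Runx1 are highest in the unnamed barcodes. Barcodes of under 1000 UMIs are left out, many of them unnamed.

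At that depth a microglia-like cell showed 2.63 ± 1.27 of the 7 genes in vehicle and 2.34 ± 1.23 in corticosterone (mean ± SD over cells of 1 library). None of the 7 was found in 3.56% and 5.43% of cells and all 7 in 0.0544% and 0.0264%. Neutrophil-like barcodes showed 1.52 and 1.12 on average, macrophage-like barcodes 2.42 and 2.20 and unnamed barcodes 2.89 and 3.03. The unnamed values cover only the 359 of 653 and 752 of 1173 barcodes that were deep enough for the thinning. Pairs of members were found together about as often as independent draws would give. Over the 21 pairs in cells thinned to 2000 UMIs, the observed count of cells with both was between 0.95 times (Maf and Runx1, vehicle) and 1.03 times (Maf and Cebpa, corticosterone) the number expected.

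Genes known to need SALL1 in microglia, a list of 3, were split. P2ry12 stood at 6122 CPM with vehicle against 3522 CPM in corticosterone (log2 ratio -0.80), and Slc2a5, a fructose transporter, at 510.1 and 296 CPM (-0.79). Tmem119, a surface marker of microglia, stood at 1781 and 2048 CPM (0.20). Thus 2 of 3 were lower past 1.5-fold and 1 was slightly higher, with a median of -0.79, where 4.75% of all genes were lower past that fold. P2ry12 and Tmem119 also served to name the class. This list and those that follow were chosen with earlier results of these data known, so their counts and medians only describe the listed genes.

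Of 12 genes known to be bound and driven by PU.1, a list also chosen with earlier results of these data known, 11 reached 20 CPM. Past 1.5-fold 4 were higher in corticosterone and 0 lower, where 5.28% of all genes were higher, and the median log2 ratio was 0.35, with 8 above 0 and 3 below. Highest was Cybb, the oxidase subunit of phagocytes, at 7.66 and 263 CPM (5.10). Cybb reached 20 CPM only through corticosterone, so it had to differ and leaves 3 of the other 10 past the fold. These were Csf2ra (1.11), Lyz2 (0.71) and Cd68 (0.67). Lowest was Itgam, which encodes the CD11b used for the sort, at 520.0 and 351 CPM (-0.57). Csf1r, the receptor for the growth factor microglia live on, stood at 3284 and 4022 CPM (0.29).

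Other transcription factors of the lineage were mostly within 1.5-fold. Of 24 listed, 21 reached 20 CPM, and 1 of these was past that fold, where 10.0% of all genes were. The median was -0.16, with 15 below 0 and 6 above. Hhex, a homeobox factor, was lowest (-0.59) and Batf3, a factor of dendritic cells, highest (0.49). Irf8, which partners PU.1 in microglia, stood at 693 and 854 CPM (0.30). Csf1r and Irf8 were named after their values were seen.

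Close relatives gave a similar picture, with 11 of 20 at 20 CPM or more, 1 lower past 1.5-fold, 0 higher and a median of -0.23, where 4.75% of all genes were lower and 5.28% higher past that fold. Of these relatives 8 were below 0 and 3 above. The stress-induced C/EBP relative Ddit3 was lowest, at 75.8 and 46.8 CPM (-0.70), and Cebpd highest, at 186 and 251 CPM (0.44). Sall4 had 0 UMIs in both libraries, which allows up to 0.0923 CPM for vehicle and 0.0419 CPM for corticosterone at 3 counts per library. Runx2 and Runx3 were under 1 CPM in both, as were the PU.1 relatives Spib and Spic, and these 5 too were named after their values were seen.

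The profile of each member was compared with that of 6383 genes over 19 sums of cells by cluster and library, as a description over sums that share libraries and differ in depth. Mef2a and Mef2c were the most alike pair of members (Pearson r 0.941), followed by Sall1 and Cebpa (0.907). Spi1 had a negative r with 5 of the other 6, lowest with Runx1 (-0.44). The genes most like Sall1 were Usp2 (0.988), Cttnbp2nl (0.986) and Adgrg1 (0.979), those most like Maf were Ly96 (0.957), Xpot (0.954) and Mfsd11 (0.95), and those most like Cebpa were Cx3cr1 (0.974), Irf2bpl (0.974) and Ckb (0.973). Mef2a was closest to Ttc28 (0.985), Inpp5d (0.984) and Chd9 (0.983), Mef2c to Mertk (0.982), Frmd4b (0.982) and Tbc1d9 (0.980), and Runx1 to Ankrd17 (0.974), Diaph2 (0.973) and Ptprj (0.970). Spi1 had no close neighbour, its best being Cdc42se1 (0.888), Rhog (0.859) and Ptpn6 (0.855).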

How the data were processed

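The authors deposited raw UMI counts per gene and barcode, 1 matrix for each library. Per the submitters' processing notes, bcl2fastq 2.19 and GRCm38 were used, while the aligner, the counter, the annotation and the calling of cells are not given in the sources used here. The files are named wild type and depression and were assigned to vehicle and corticosterone through the sample records, on which every direction rests. A cell needed 500 UMIs, 300 genes and no more than 20% of UMIs from mitochondrial genes, which removed 55 of 10555 vehicle and 230 of 18113 corticosterone barcodes. Of the barcode sequences 104 occurred in both libraries, 0 of them with identical counts. Scrublet called 0 cells in either library and is taken to have failed, so doublets were not removed.

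Log values of counts at 10000 UMIs per cell from both libraries were clustered together (scanpy 1.11.5, leidenalg 0.10.2) on 2000 variable genes, without the 7 members and the other lineage factors, with 30 principal components, 15 neighbours and Leiden resolution 0.5. Clusters were named when at least 3 markers of a class were found in 10% of cells at 2 times the level elsewhere, or as microglia-like when microglia markers reached 0.5 times their level in all cells. A cluster with more markers of another class than of its own among its 10 leading genes stayed unnamed. So did one with none of its own there and under 33.3% of its library's median UMIs. UMIs were summed by class and library and scaled to CPM. Intervals are exact Poisson for levels, exact conditional binomial for ratios and Clopper-Pearson for shares. No p-value was computed, since there was 1 library per group. Likeness used log2(CPM + 1) over sums of at least 50 cells. Steps across many genes were tested on simulated data.

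The members, the lists (other lineage factors, relatives by family, PU.1 targets and SALL1-dependent genes) and the rules were chosen with earlier results of these data known. All 7 members were described, together with the highest and lowest gene of each list at 20 CPM or more and the 3 genes most like each member. Alternatives covered scaling (edgeR 4.0.16 TMM, DESeq2 1.42.0 size factors), the cell filter, the clustering, multiplets, the filter on low counts, the fold and the thinning depth.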

Additional observations from a re-analysis of the deposited data

Results flagged for a closer look

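In the unnamed low-UMI barcodes Mef2a had a log2 ratio of corticosterone over vehicle of 0.28, while it was -0.14 in microglia-like cells. Mef2c had 0.20 there and -0.43 in microglia-like cells. Both were flagged because the direction is opposite in the 2 kinds of barcode. A shift this way was common for genes of their span. Over all genes of 100 to 200 kb, the median log2 ratio of unnamed over microglia-like barcodes was 0.68 in vehicle and 1.13 in corticosterone. With 1 library per group the difference was not tested.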

How the results depend on the processing

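Across 15 alternatives for single genes, Maf kept its direction and stayed lower past 1.5-fold in all 15 (-0.78 to -0.65), Sall1 (-0.54 to -0.39), Mef2c (-0.49 to -0.32) and Mef2a (-0.21 to -0.03) stayed below 0, and Spi1 (0.17 to 0.35) stayed above 0. Runx1 was at -0.0065 with the mean of single-cell CPM and above 0 in the other 14. Cebpa, from -0.02 to 0.21, had no stable sign. TMM and DESeq2 factors moved the median of all genes by 0.09 and 0.11, the same for every gene by construction, so the order of the members among all genes cannot change. At Leiden resolution 1.0 the macrophage-like ratios of Sall1 (0.48), Mef2a (0.15) and Cebpa (0.20) and the monocyte-like ratio of Spi1 (-0.022) changed sign. Of these only Sall1 had an interval that excluded 0. The cause was not tested.

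The median over the 7 members, -0.14, was -0.045 with TMM, -0.026 with DESeq2, -0.10 with a total without mitochondrial and ribosomal protein genes and -0.21 with the mean of single-cell CPM. It was -0.064 over all cells, -0.054 with a rule per cell, -0.21 at resolution 1.0, -0.042 with the members kept among the variable genes, -0.16 without the 5% of barcodes with the most UMIs and -0.11 with the unnamed cells added, an alternative chosen after the data were seen. With 2-fold in place of 1.5-fold, 0 members were past the threshold. Of the other lineage factors, 1 past 1.5-fold became 0 with TMM, with the total without mitochondrial and ribosomal protein genes, over all cells, with the rule per cell, with the members kept and at 2-fold. With DESeq2 the 1 was Batf3 (0.60, higher) in place of Hhex, and there were 2 (Hhex and Mitf) with the mean of single-cell CPM and at resolution 1.0. The share of all genes past 1.5-fold was 12.49% at 5 CPM or more and 32.6% with no filter on low counts.

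The class itself was the weakest choice: at resolution 1.0 it held 3596 vehicle cells, and with the members kept among the variable genes 677, in place of 7952, because a cluster led by Pecam1 then went unnamed. Depth limits the shares of single cells and values in the small classes. No paired analysis was possible because there was 1 library per group, and for the same reason no replicate could be left out.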
